A study of Mus musculus with 19 samples.

Results

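A set of 41 genes of the cell division cycle was followed in ventricular RNA of mice that lost the mitochondrial pyruvate carrier subunit MPC1 in the heart. The genes were taken by symbol from the 55536 genes counted in each library, and all 41 passed the filter on low counts, as did 15503 genes in all. They were ordered by role into 5 genes of G1 phase (D- and E-type cyclins and E2f1), 9 genes of DNA replication and nucleotide synthesis, 13 mitotic cyclins, kinases and checkpoint genes, 8 genes of chromosomes, kinetochores and the spindle, and 6 genes of cytokinesis. The groups were KO-8 (MPC1 knockout, 4 libraries) and WT-8 (wild type, 5 libraries), both 8 weeks after induction of the knockout, and KO-16 and WT-16 (5 libraries each), both 16 weeks after it. The promoter that restricted the knockout to the heart, the inducing agent, the strain, the age and the number of animals behind a library are not given in the sources used here, nor is it said whether the wild-type mice received that agent. The p-values therefore measure the spread between libraries, which may be technical.

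A cell that divides passes a G1 checkpoint under D- and E-type cyclins, copies its DNA with the help of the MCM helicase, and then switches on the genes of mitosis and cytokinesis. In G2 and M phase those late genes are induced together by the MuvB-associated factors B-MYB and FOXM1. Most adult heart muscle cells have left the cell cycle, so in the adult ventricle mitotic transcripts are usually ascribed to fibroblasts, endothelial cells and immune cells, although heart muscle cells under stress can resume DNA synthesis without dividing. Because RNA came from whole tissue, fewer cells of a type and less RNA per cell cannot be told apart. CENP-F, the protein of Cenpf, binds kinetochores and microtubules in mitosis and also holds microtubules in cells that do not divide, and loss of Cenpf from mouse heart muscle has been reported to cause dilated cardiomyopathy.

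Mpc1 was lower in every knockout library, at 10.8 ± 1.62 CPM (counts scaled to the TMM-adjusted library total; SD, n = 4) in KO-8 and 74.3 ± 6.82 (n = 5) in WT-8, and at 15.1 ± 6.99 in KO-16 and 69.6 ± 9.29 in WT-16 (n = 5 each). Library totals ran between 16528626 and 19466260 counted read pairs in KO-8, 17420121 and 27516660 in WT-8, 9538130 and 26914074 in KO-16, and 8632127 and 19678367 in WT-16. At 16 weeks 1 annotated gene on 18S ribosomal RNA took 1.71% to 30.0% of the counts in KO-16 and 6.88% to 39.1% in WT-16, against at most 0.0666% at 8 weeks. A count of 0 allowed up to 3 counts, which was 0.0777 to 0.758 CPM depending on the library, for counting error only. Of the cell type marker lists that of heart muscle cells had the highest sum in every library, 27045 to 52891 CPM over 8 genes. Of the atrial markers Myl7 reached 87.7 CPM in its highest WT-16 library and 48.1 CPM in its highest KO-16 library, against at most 2.89 CPM at 8 weeks. Sums of the 4 atrial markers (Myl7, Myl4, Sln and Nppa) were 111 to 208 CPM in KO-8 and 24.3 to 51.7 CPM in WT-8. At 16 weeks they were 248 to 2351 CPM in KO-16 and 27.1 to 549 CPM in WT-16. Only Nppa was called, as higher at both times. Fold changes were above 0 for 1 of the 4 at 8 weeks and 2 of the 4 at 16 weeks. Male transcripts marked replicate 4 of KO-16 and replicate 5 of WT-16, and the other 17 libraries had female transcripts.

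The comparison at 8 weeks asked which division genes had changed early after the loss of the carrier. In KO-8, 21 of the 41 genes were higher than in WT-8 and 2 were lower, by edgeR's quasi-likelihood test at an adjusted p under 0.05. Over all genes tested 4.33% were called higher and 3.85% lower, and 51.2% of the 41 were called higher. An unadjusted p under 0.05 was reached by 30 of the 41, 28 of them higher, and by 23.0% of all genes. The median log2 fold change of the 41 was 0.90, and that of all genes tested was 0.00. Genes with few counts may have passed the filter through KO-8 alone, which favours genes that are higher there. Ccnb1 had 12 to 21 counts a library in KO-8 and 1 to 8 in WT-8. Aurkb had 13 to 20 in KO-8 and 6 to 11 in WT-8. In 19 of the 41 every KO-8 library lay above every WT-8 library, and in 1 every KO-8 library lay below, where 4.98% and 5.75% of all genes separated in those directions. All 21 higher and both lower calls were lost when the 8-week difference was tested in a fit that took its spread from all 19 libraries, which called 0 of the 41 higher and 0 lower, against 0.110% and 0.0903% of all genes, and gave 20 higher and 2 lower at an unadjusted p under 0.05, which 7.85% of all genes reached. The coefficient of variation common to all genes was 0.0932 among the 8-week libraries and 0.171 over all 19.

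**Figure D1:**
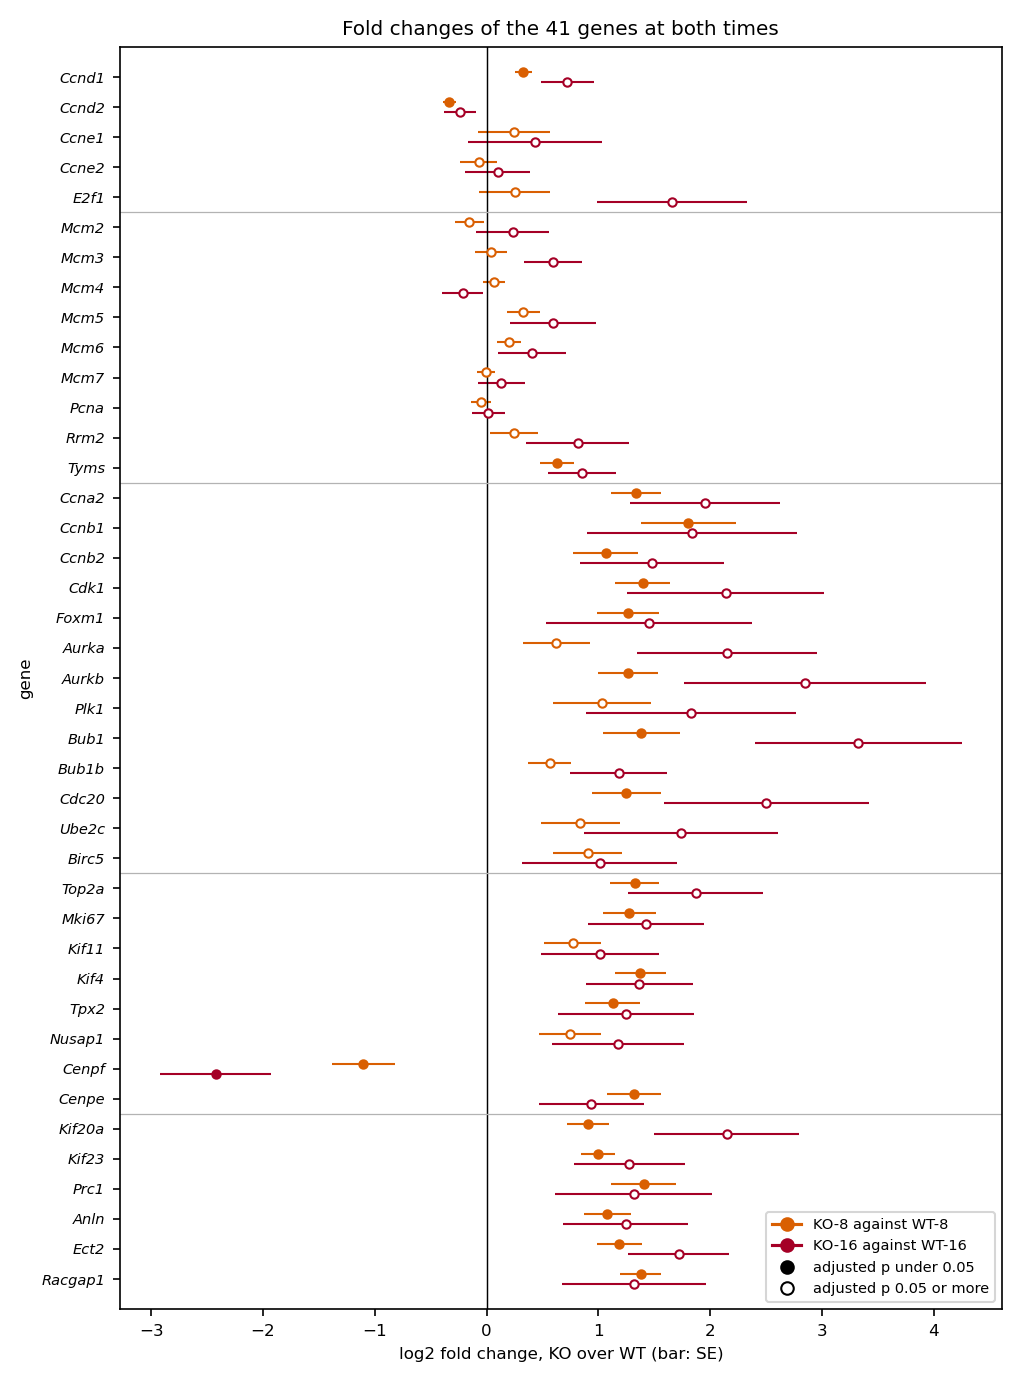
Log2 fold change of each of the 41 genes, KO over WT, with its standard error as a bar, at 8 weeks (orange) and 16 weeks (dark red), in the order of the 5 roles; filled points passed an adjusted p of 0.05. At 8 weeks 21 points right of 0 and those of Ccnd2 and Cenpf left of it are filled, and at 16 weeks only that of Cenpf is.

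Genes of cytokinesis, which split the cell after chromosome segregation, were all higher in KO-8 (6 of 6), each with KO-8 libraries separate from WT-8. Racgap1, the GTPase-activating subunit of the centralspindlin complex, had 3.87, 2.73, 2.94 and 2.35 CPM in the KO-8 libraries, against 1.22, 1.09, 1.57, 0.962 and 0.959 CPM in WT-8. The lowest KO-8 value thus lay above the highest WT-8 value, and the log2 fold change was 1.38 (SE 0.19, adjusted p = 0.000593), the smallest adjusted p of the set. Kif23, the motor subunit of the same complex, had 4.30, 3.02, 2.94 and 3.02 CPM in KO-8, against 1.54, 1.55, 2.05, 1.72 and 1.55 CPM in WT-8 (log2 fold change 0.996, SE 0.15, adjusted p = 0.00144). Both were highest in replicate 1 of KO-8. Ect2, the RhoA activator that centralspindlin recruits, rose by 1.19 on the log2 scale (SE 0.20), and Prc1, which bundles the microtubules of the central spindle, by 1.41 (SE 0.29). Anln, an actin-binding scaffold of the contractile ring, and Kif20a, a motor of the central spindle, rose by 1.08 (SE 0.21) and 0.90 (SE 0.19).

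Of the chromosome, kinetochore and spindle genes 5 of 8 were higher and 1, Cenpf, was lower. Top2a, the topoisomerase that untangles sister chromatids, had 16.8, 11.7, 8.53 and 8.92 CPM in KO-8, against 3.34, 5.65, 6.71, 4.05 and 3.73 CPM in WT-8. Its groups did not overlap, and it was 2.50-fold higher (log2 fold change 1.32, SE 0.22, adjusted p = 0.00235). Mki67, which coats mitotic chromosomes and is the common proliferation marker Ki-67, had 38.8, 26.9, 18.1 and 20.3 CPM in KO-8, against 6.48, 12.7, 16.4, 9.02 and 9.95 CPM in WT-8 (log2 fold change 1.28, SE 0.24, adjusted p = 0.00507). Here the lowest KO-8 library stood only a little above the highest WT-8 library. Kif4, a motor of condensed chromosomes and the central spindle, rose by 1.38 on the log2 scale (SE 0.23), Cenpe, the plus-end motor of kinetochores, by 1.32 (SE 0.24), and Tpx2, which nucleates spindle microtubules, by 1.13 (SE 0.25). Kif11, the motor that separates spindle poles, and Nusap1, a spindle-bundling protein, did not pass, at 0.77 (SE 0.26, adjusted p = 0.0852) and 0.75 (SE 0.28, adjusted p = 0.122) on the log2 scale.

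Among the mitotic cyclins, kinases and checkpoint genes 8 of 13 were higher in KO-8. Ccna2, the cyclin of S and G2 phase, had 5.67, 4.07, 3.15 and 2.91 CPM in KO-8, against 1.25, 1.51, 2.44, 1.52 and 1.30 CPM in WT-8. The groups did not overlap (log2 fold change 1.33, SE 0.22, adjusted p = 0.00269). Cdk1, the kinase of mitotic entry, had 2.24, 1.22, 1.47 and 1.23 CPM in KO-8, against 0.449, 0.795, 0.741, 0.441 and 0.544 CPM in WT-8 (log2 fold change 1.40, SE 0.25, adjusted p = 0.004). Its cyclins Ccnb1 and Ccnb2 rose by 1.81 (SE 0.42) and 1.06 (SE 0.29) on the log2 scale, Ccnb1 from the lowest level per kilobase of the set in WT-8 with 1 to 8 counts a library. Foxm1, a transcription factor of late cell cycle genes, rose by 1.26 (SE 0.28), the chromosomal passenger kinase Aurkb by 1.26 (SE 0.27), the checkpoint kinase Bub1 by 1.38 (SE 0.34) and Cdc20, an activator of the anaphase-promoting complex, by 1.25 (SE 0.31). The other 5 had positive log2 fold changes that did not pass: Plk1, a mitotic kinase, 1.03 (SE 0.44), Birc5, the passenger protein survivin, 0.90 (SE 0.31), Ube2c, the ubiquitin-conjugating enzyme of anaphase, 0.84 (SE 0.35), Aurka, the spindle pole kinase, 0.62 (SE 0.30), and Bub1b, the checkpoint protein BubR1, 0.56 (SE 0.19).

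The genes of G1 phase and of DNA replication gave a different count, with 1 of 5 and 1 of 9 higher. Ccnd1, a D-type cyclin that responds to growth signals, had 45.3, 46.5, 37.6 and 49.8 CPM in KO-8, against 36.3, 38.6, 33.3, 37.7 and 33.7 CPM in WT-8, and was 1.26-fold higher (log2 fold change 0.33, SE 0.08, adjusted p = 0.0153). Its groups overlapped by replicate 3 of KO-8. Ccnd2, a second D-type cyclin, went the other way, with 68.3, 74.6, 64.0 and 79.9 CPM in KO-8, against 90.98, 89.2, 93.4, 93.3 and 87.9 CPM in WT-8 (log2 fold change -0.33, SE 0.06, adjusted p = 0.00457). All KO-8 libraries lay below all WT-8 libraries. Ccne1 and Ccne2, the E-type cyclins of S phase entry, and the transcription factor E2f1 had log2 fold changes of 0.25 (SE 0.33), -0.07 (SE 0.16) and 0.25 (SE 0.32), and none of them passed.

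Tyms, which makes thymidylate, was the replication gene that passed, with 2.24, 2.16, 2.35 and 2.87 CPM in KO-8, against 1.51, 1.55, 1.39, 1.96 and 1.45 CPM in WT-8 (log2 fold change 0.63, SE 0.15, adjusted p = 0.0182). The 6 subunits of the MCM helicase, which unwinds DNA at the fork, did not pass: Mcm2 was at a log2 fold change of -0.15 (SE 0.13), Mcm3 at 0.04 (SE 0.14), Mcm4 at 0.07 (SE 0.10), Mcm5 at 0.33 (SE 0.15), Mcm6 at 0.20 (SE 0.11) and Mcm7 at -0.01 (SE 0.08). Pcna, the sliding clamp of DNA polymerase, was at -0.05 (SE 0.09) and Rrm2, a ribonucleotide reductase subunit, at 0.24 (SE 0.22). The levels of the MCM genes and Pcna, in CPM per kilobase of counted exon, were above those of most mitotic genes: Pcna had 4.80 in KO-8 and 5.02 in WT-8, and Mcm4 1.84 in KO-8 and 1.77 in WT-8, against 1.28 in KO-8 and 0.521 in WT-8 for Top2a.

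Within KO-8 replicate 1 had the highest value for 26 of the 40 genes other than Cenpf and replicate 3 the lowest for 22. Their medians over those genes were 1.27 and 0.50 on the log2 scale above the WT-8 mean, with replicates 2 and 4 at 0.89 and 0.45, and the WT-8 libraries lay between -0.28 and 0.32. All 4 KO-8 libraries were thus above every WT-8 library by that median. Leaving out each of the 9 libraries of 8 weeks in turn kept 16 of the 21 higher calls each time, and the 5 that were lost at least 1 time were Ccnb1, Ccnb2, Bub1, Cdc20 and Tyms. Of the lower calls Ccnd2 stood each time, and Cenpf was lost without replicate 4 or 5 of WT-8 or replicate 2 of KO-8.

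**Figure D2:**
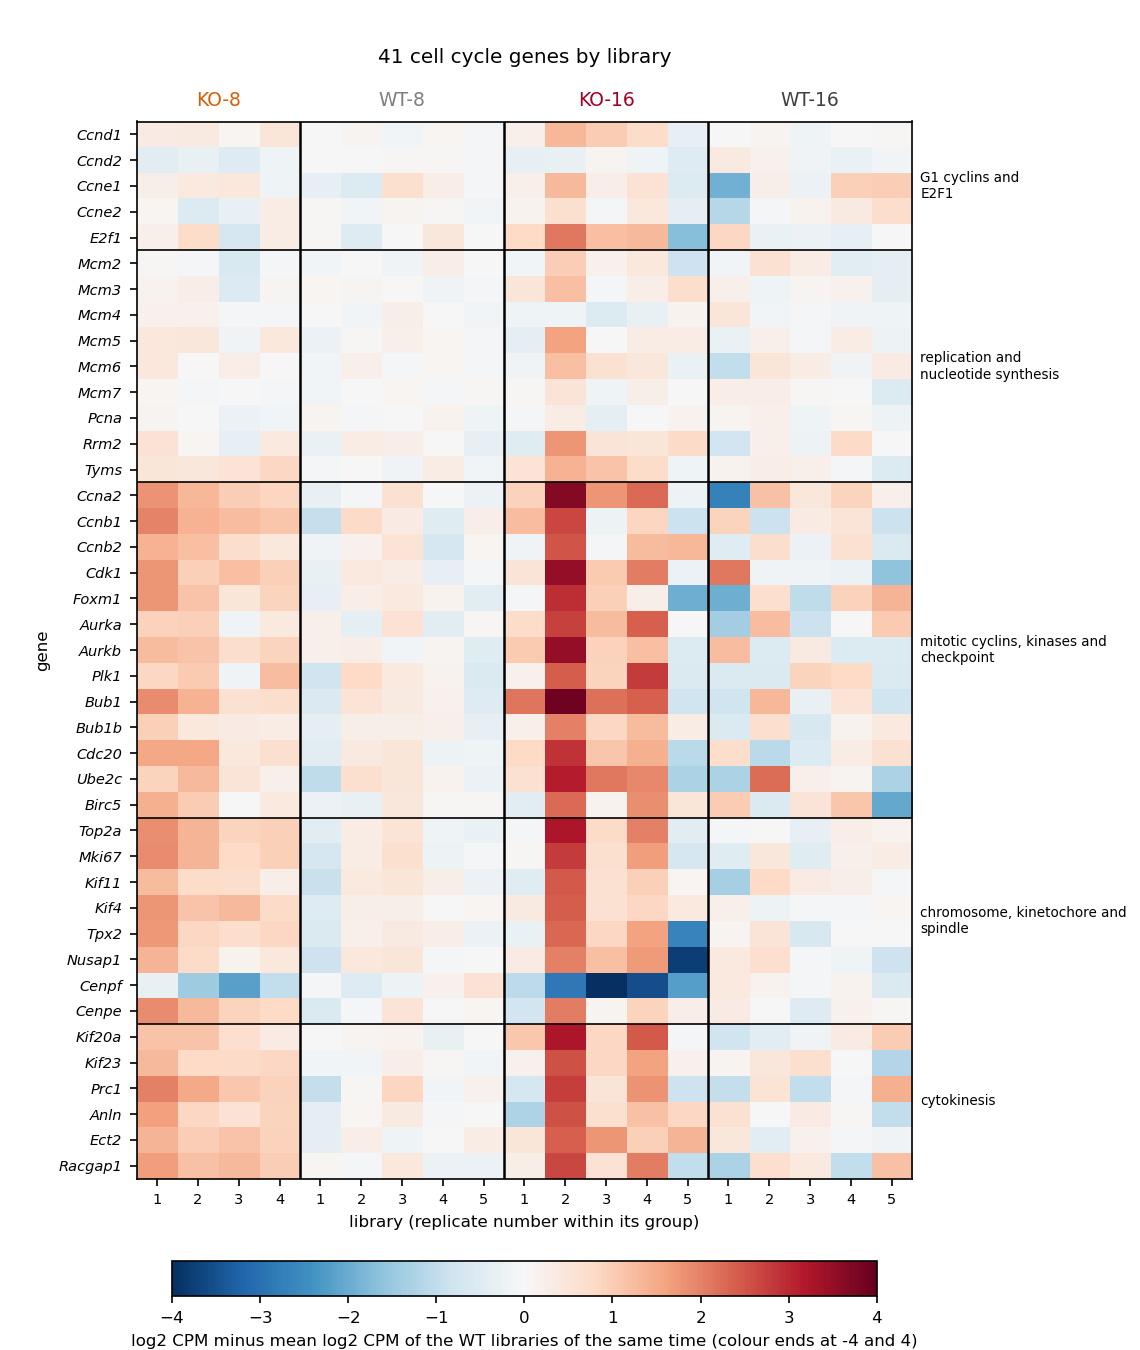
Each cell gives log2 CPM of a gene (rows, by role) in a library (columns, by replicate number within KO-8, WT-8, KO-16 and WT-16), minus the mean log2 CPM of the WT libraries of the same time; red is higher, blue lower, and colours end at -4 and 4. Red covers most of the mitotic and cytokinesis rows in the 4 KO-8 libraries, KO-16 is darkest in replicate 2, and the Cenpf row is blue in every KO library.

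At 16 weeks none of the 41 genes was higher in KO-16 by the same test and 1, Cenpf, was lower. Over all genes 1.72% were called higher and 0.813% lower. Of the 41 fold changes 38 were above 0, with a median of 1.25 on the log2 scale, against 0.02 over all genes. With the filter on low counts set by the 16-week libraries alone, 23 of the 41 could be tested and 20 of them were above 0. Their median was 0.84 and 8 were higher at an unadjusted p under 0.05. The other 18 genes passed only the filter over all 19 libraries. The 2 filters differ in cutoff as well as in libraries, so these genes did not all enter through their counts at 8 weeks alone. Of the 41, 19 were higher at an unadjusted p under 0.05, where 12.9% of all genes were, with 1 lower, where 10.6% were. That count of 19 was 5 without replicate 2 of KO-16, and also 5 with 18S content as a covariate. DESeq2 called 3 of the 41 higher (Bub1, Kif20a and Ect2), against 4.35% of all genes, limma-voom 0, against 0.735%, and limma-voom with quality weights 6, against 6.71%. In the fit to all 19 libraries 16 were called higher and 1 lower, against 11.2% and 9.32% of all genes. The same fit without replicate 2 of KO-16 called 1 higher, Ect2, against 5.41% of all genes. Within the 16-week fit 10 were called higher without replicate 1 of KO-16, against 6.42% of all genes, and 11 without replicate 5, against 6.76%.

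Values at 16 weeks were uneven between libraries, and replicate 2 of KO-16 stood apart. It had the highest KO-16 value for 37 of the 40 genes other than Cenpf, and its median over those 40 was 2.41 on the log2 scale above the WT-16 mean. The medians of replicates 1, 3, 4 and 5 of KO-16 were 0.17, 0.64, 1.19 and -0.24, so replicate 5 was below the WT-16 mean, and it was the lowest KO-16 library for 26 of the 40 genes. Without replicate 2 the median log2 fold change of the 41 was 0.61. Replicate 2 was also the deepest KO-16 library, with 26914074 counted pairs, and had the smallest share of counts on 18S ribosomal RNA, 1.71%. Replicate 5 was the shallowest KO-16 library, with 9538130 pairs and 26.1% on 18S. The part of depth and rRNA content in these values was not tested. In the libraries with over 20% of counts on 18S (2 KO and 4 WT, a subset chosen after the data were seen) the median was 0.61, 34 of 41 fold changes were above 0 and 3 were higher at an unadjusted p under 0.05.

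Top2a had 2.73, 28.5, 4.995, 12.1 and 2.16 CPM in the KO-16 libraries, in replicate order, against 2.78, 2.89, 2.30, 3.49 and 3.22 CPM in WT-16. Replicates 2, 3 and 4 of KO-16 lay above all WT-16 libraries and replicates 1 and 5 did not (log2 fold change 1.87, SE 0.61, adjusted p = 0.0937). Mki67 had 10.2, 69.5, 15.4, 31.4 and 6.14 CPM in KO-16, against 7.07, 13.5, 7.04, 11.3 and 12.2 CPM in WT-16, with the same 3 libraries above WT-16 (log2 fold change 1.43, SE 0.52, adjusted p = 0.126). Ccna2 had 1.19, 8.62, 2.22, 3.17 and 0.498 CPM in KO-16, against 0, 1.44, 0.828, 1.16 and 0.689 CPM in WT-16 (log2 fold change 1.95, SE 0.67, adjusted p = 0.109). The same 3 KO-16 libraries were again the high ones.

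Bub1 had the largest log2 fold change at 16 weeks, 3.32 (SE 0.93, adjusted p = 0.0655), on very few counts. Its values were 0.701, 2.62, 0.740, 0.854 and 0 CPM in KO-16, against 0, 0.361, 0.0460, 0.166 and 0 CPM in WT-16, where no library had more than 2 counts. Of the KO-16 libraries 4 lay above all of WT-16 and replicate 5 had no count. Ect2 and Kif4 were the 2 genes whose KO-16 libraries all lay above WT-16, where 1.99% of all genes separated in that direction. Ect2 had 0.771, 3.21, 2.04, 1.10 and 1.49 CPM in KO-16, against 0.758, 0.361, 0.598, 0.499 and 0.459 CPM in WT-16 (log2 fold change 1.72, SE 0.45, adjusted p = 0.0567). Kif4 had 1.12, 5.10, 1.36, 1.59 and 1.16 CPM in KO-16, against 1.01, 0.722, 0.828, 0.832 and 0.919 CPM in WT-16 (log2 fold change 1.37, SE 0.48, adjusted p = 0.116). In both the gap between the groups was narrow.

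By role the medians of the log2 fold changes at 16 weeks were 1.83 for the mitotic cyclins, kinases and checkpoint genes, 1.32 for cytokinesis, 1.21 for chromosome, kinetochore and spindle genes, 0.43 for G1 genes and 0.41 for replication genes. At 8 weeks they were 1.25, 1.13, 1.20, 0.25 and 0.07 in the same order. Among mitotic regulators Aurkb was at 2.85 (SE 1.08), Cdc20 at 2.50 (SE 0.91), Aurka at 2.15 (SE 0.80) and Cdk1 at 2.14 (SE 0.88), all with at most 5 counts in any WT-16 library. The remaining members of that role, Ccnb1, Ccnb2, Foxm1, Plk1, Ube2c, Birc5 and Bub1b, lay between 1.01 (Birc5) and 1.83 (Ccnb1). Of the cytokinesis genes Kif20a was at 2.15 (SE 0.65), and Racgap1, Prc1, Kif23 and Anln lay between 1.24 (Anln) and 1.32 (Racgap1 and Prc1). Cenpe, Kif11, Nusap1 and Tpx2 were at 0.94, 1.02, 1.17 and 1.25. No gene named in these sentences passed at 16 weeks.

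Of the G1 and replication genes at 16 weeks Ccnd1 had 36.2, 79.1, 63.2, 52.1 and 25.1 CPM in KO-16, against 31.6, 33.8, 27.8, 31.6 and 32.2 CPM in WT-16 (log2 fold change 0.72, SE 0.24, adjusted p = 0.0977). The KO-16 libraries ranged far more widely than WT-16, with replicate 5 below all of WT-16 and the other 4 above. E2f1 was at 1.66 (SE 0.67), with no count in replicate 5 of KO-16, and Tyms at 0.85 (SE 0.30). Ccnd2, Ccne1 and Ccne2 were at -0.24 (SE 0.15), 0.43 (SE 0.60) and 0.10 (SE 0.29). The MCM genes ran from -0.22 (Mcm4, SE 0.18) to 0.59 (Mcm3, SE 0.26, and Mcm5, SE 0.38), with Mcm2 at 0.23, Mcm6 at 0.41 and Mcm7 at 0.13, while Pcna was at 0.02 (SE 0.15) and Rrm2 at 0.82 (SE 0.46). Of the whole set Pcna thus had the fold change nearest to 0 at 16 weeks.

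**Figure D3:**
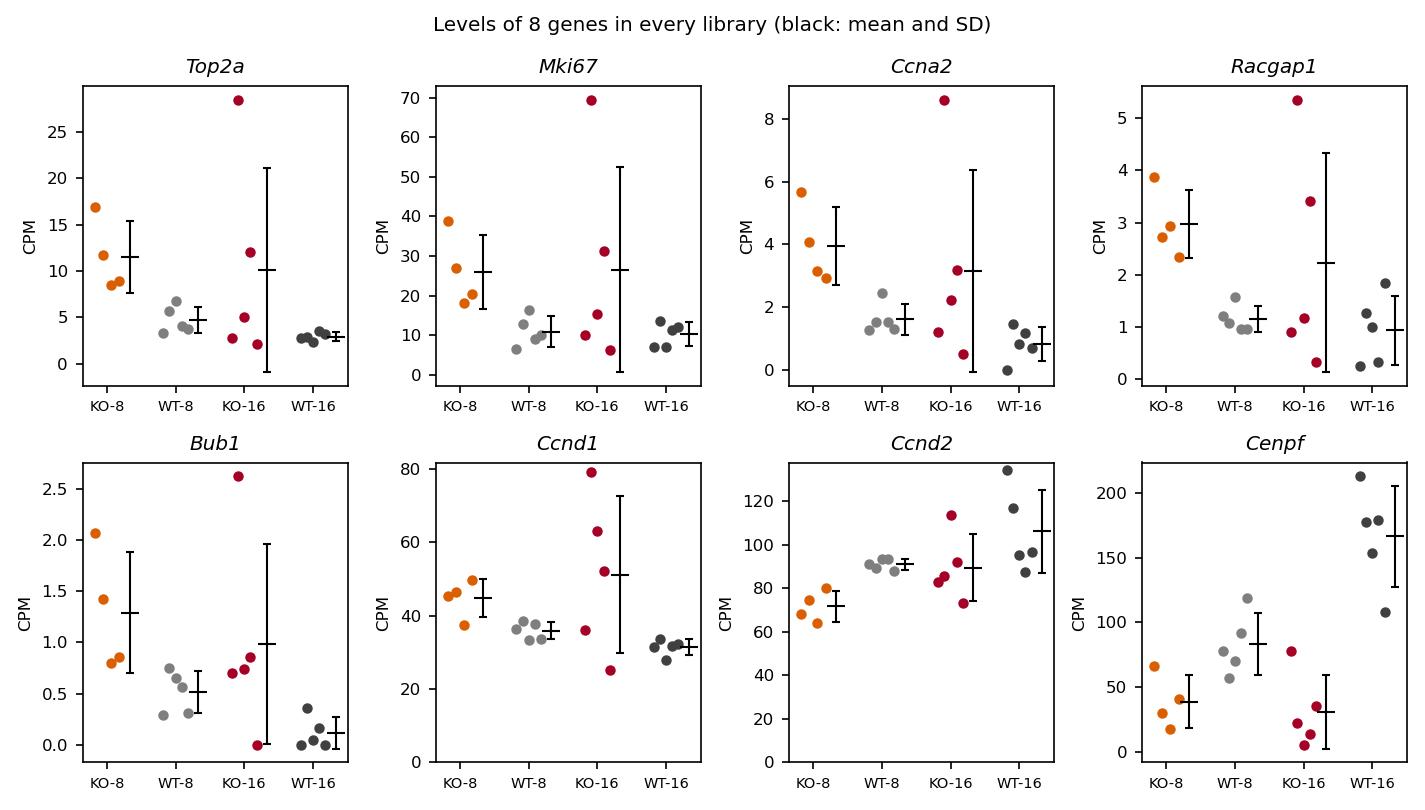
CPM of 8 genes in every library (points) of KO-8, WT-8, KO-16 and WT-16, with the mean and SD beside them in black. Top2a, Mki67, Ccna2 and Racgap1 in KO-8 lie above all WT-8 points, replicate 2 is the highest KO-16 point of these genes and of Bub1 and Ccnd1, and Cenpf in KO-16 lies below all WT-16 points.

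The direct test of whether the knockout effect differed between 16 and 8 weeks called none of the 41 genes with edgeR, and none of the 15503 genes tested (0.00% in either direction). At an unadjusted p under 0.05, which 12.9% of all genes reached, it gave 1 of the 41, E2f1, with a larger effect at 16 weeks (difference of log2 fold changes 1.54, SE 0.74, adjusted p = 0.386). DESeq2 called 0 of the 41, against 22 of the 15503 genes higher and 8 lower, and limma-voom called 0 of the 41 and 0 of all genes. With quality weights limma-voom called 1 of the 41, with a more negative effect at 16 weeks. That fit called 224 of the 15503 genes higher and 303 lower. The larger number of calls at 8 weeks than at 16 weeks is therefore no measured difference between the times. Time and rRNA content also cannot be told apart, since only 16-week libraries held much 18S.

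Cenpf went against most of the other 40 genes at both times. It lies on the minus strand of chromosome 1 of GRCm38 (189640606 to 189688086; ENSMUSG00000026605, protein coding). At 8 weeks it had 65.9, 29.7, 17.8 and 40.9 CPM in KO-8, against 77.8, 56.8, 70.3, 91.7 and 119 CPM in WT-8. Replicate 1 of KO-8 overlapped with WT-8, and the log2 fold change was -1.10 (SE 0.28, adjusted p = 0.0281). At 16 weeks it had 78.1, 22.3, 5.43, 13.7 and 35.0 CPM in KO-16, against 213, 178, 154, 179 and 108 CPM in WT-16. All KO-16 libraries lay below all WT-16 libraries, as for 2.30% of all genes, and the log2 fold change was -2.42 (SE 0.50, adjusted p = 0.0281), so that the KO-16 mean was 18.6% of the WT-16 mean. The difference between the times, -1.32 (SE 0.64, adjusted p = 0.390), did not pass. With each of the 10 libraries left out in turn, the log2 fold change of Cenpf at 16 weeks lay between -3.14 and -2.15, but it missed the threshold without replicate 1, 2, 4 or 5 of WT-16 or replicate 2 or 4 of KO-16, with adjusted p from 0.0581 to 0.0831. It also missed it in a fit with the share of 18S counts as a covariate (-2.35, adjusted p = 0.0903) and without the 2 male libraries (-2.36, adjusted p = 0.148).

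In the wild-type groups Cenpf was also far more abundant than the other mitotic genes, while in the knockout groups Mki67 had the higher mean. Per kilobase Cenpf had a mean of 2.50 CPM in KO-8 and 5.39 in WT-8, and 2.00 in KO-16 and 10.8 in WT-16. That placed it at rank 5 of 41 in KO-8 and 3 in WT-8, and at rank 6 in KO-16 and 2 in WT-16. Mki67, the next most abundant of the mitotic and cytokinesis genes in WT libraries, had 2.59 CPM per kilobase in KO-8 and 1.09 in WT-8, and 2.64 in KO-16 and 1.02 in WT-16. In KO-8 the means of the 2 genes were thus close. In KO-16 the mean of Mki67 rested largely on replicate 2, at 69.5 CPM, where the others had 6.14 to 31.4 CPM. Which of the 2 genes was higher per kilobase differed between the libraries of both knockout groups. In both wild-type groups Cenpf thus stood nearer to Pcna and the D-type cyclins than to Top2a or Cenpe, whose levels per kilobase in WT-16 were 0.326 and 0.261.

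In KO-16 the libraries with the lowest Cenpf were those with the highest values of the other genes. Replicates 2, 3 and 4 had 22.3, 5.43 and 13.7 CPM of Cenpf and medians over the other 40 genes of 2.41, 0.64 and 1.19 on the log2 scale above the WT-16 mean. Replicates 1 and 5 had 78.1 and 35.0 CPM of Cenpf and medians of 0.17 and -0.24. Most Mpc1 remained in replicate 1 of KO-16, at 26.2 CPM, where the other 4 knockout libraries of 16 weeks had 9.03 to 15.9 CPM. In KO-8 the order was not the same: replicate 3 had the lowest Cenpf, 17.8 CPM, the lowest Mpc1, 8.41 CPM, and a median of 0.50 for the other genes, and replicate 1 had the highest Cenpf, 65.9 CPM, and the highest median, 1.27. These are 4 and 5 libraries, and no relation was tested.

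**Figure D4:**
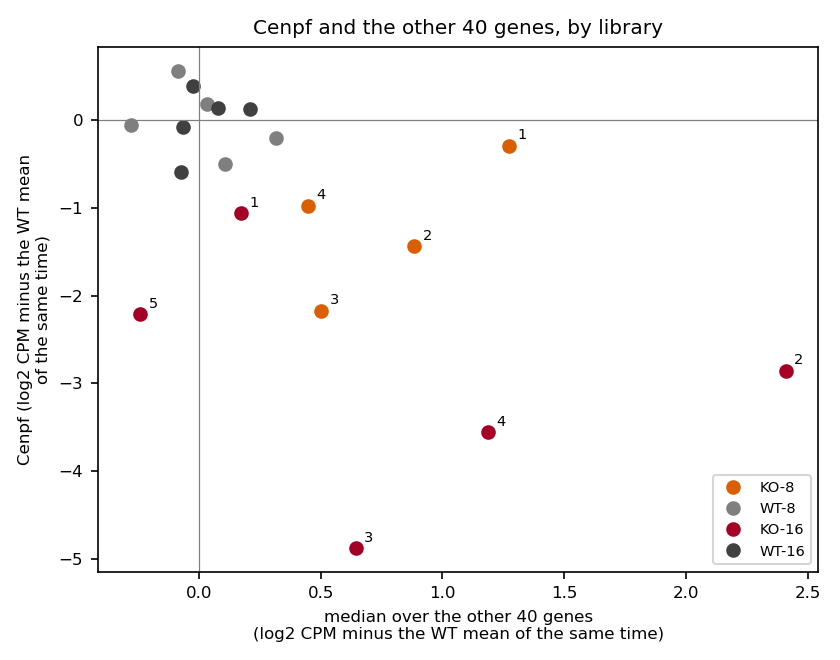
Each point is a library, with the median over the other 40 genes on the horizontal axis and Cenpf on the vertical axis, both as log2 CPM minus the WT mean of the same time; numbers are replicates of KO-8 (orange) and KO-16 (dark red), and WT libraries are grey. All 9 KO libraries lie below 0 for Cenpf, and 8 of them lie above 0 for the other genes, the exception being replicate 5 of KO-16.

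None of the protein-coding genes measured beside Cenpf on chromosome 1 passed at either time. Within 500 kb Ptpn14, Smyd2, Prox1 and Kcnk2 had log2 fold changes of -0.20, 0.18, -0.22 and -0.60 at 8 weeks and -0.06, 0.36, -0.38 and 0.90 at 16 weeks, with adjusted p from 0.0804 to 0.770. NDE1 and NDEL1, dynein regulators that bind CENP-F, had log2 fold changes of 0.06 (Nde1, SE 0.07) and -0.01 (Ndel1, SE 0.05) at 8 weeks, and -0.13 (Nde1, SE 0.14) and -0.12 (Ndel1, SE 0.17) at 16 weeks. Neither passed at either time.

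Other genes of the same pathway were described from lists chosen with earlier results of these data known. Of 27 other kinetochore and centromere genes measured, 6 rose in KO-8 (4.33% of all genes were called higher) and none fell. They were Cenpa, the centromeric histone, by 0.45 (SE 0.08), the inner kinetochore gene Cenpu by 0.92 (SE 0.23), Nuf2, Ndc80 and Knl1 of the microtubule-binding outer kinetochore by 1.71 (SE 0.38), 1.24 (SE 0.35) and 1.39 (SE 0.31), and the checkpoint kinase Ttk by 1.44 (SE 0.31), all on the log2 scale. The median of the list was 0.25 at 8 weeks and 0.35 at 16 weeks. At 16 weeks edgeR called none of the 27, with 6 higher and 1 lower at an unadjusted p under 0.05, while DESeq2 called 4 higher, limma-voom 0 and limma-voom with quality weights 5. The smallest adjusted p at 16 weeks were those of Cenpa (log2 fold change 0.99, SE 0.27, adjusted p = 0.0598), Knl1 (1.57, SE 0.46, adjusted p = 0.0721), Spc25, another outer kinetochore subunit (3.43, SE 1.02, adjusted p = 0.0772), and Nuf2 (2.17, SE 0.71, adjusted p = 0.0977).

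Of 35 other replication genes 1 rose in KO-8, no larger a share than the 4.33% of all genes. It was Gmnn, which encodes the licensing inhibitor geminin (log2 fold change 0.32, SE 0.08, adjusted p = 0.0311), and the median was 0.06. At 16 weeks edgeR, DESeq2, limma-voom and limma-voom with quality weights all called none of the 35, and with edgeR 0 were higher and 1 lower at an unadjusted p under 0.05. Pola1, a DNA polymerase alpha subunit, was at -0.35 (SE 0.13), the helicase component Gins2 at 2.04 (SE 0.99) on 0.343 ± 0.378 CPM in KO-16 and 0.0906 ± 0.156 CPM in WT-16 (SD, n = 5 each), the ligase Lig1 at 0.52 (SE 0.25) and the origin recognition gene Orc5 at 0.35 (SE 0.18). Of 21 measured G1 kinase, RB, E2F and DREAM genes 1 rose in KO-8, which is about the share of all genes, 4.33%. It was E2f7, a repressor of the E2F family (log2 fold change 0.80, SE 0.21, adjusted p = 0.0290). For this list edgeR called none at 16 weeks, with 2 higher and 3 lower at an unadjusted p under 0.05, DESeq2 calling 1 lower, limma-voom 0 and limma-voom with quality weights 3 lower. Their smallest adjusted p at 16 weeks were those of Cdk6, a G1 kinase (-0.47, SE 0.14, adjusted p = 0.0717), Lin52, a MuvB subunit (-0.59, SE 0.22, adjusted p = 0.132), Tfdp2, an E2F partner (-0.61, SE 0.24, adjusted p = 0.147), and E2f3 (0.52, SE 0.22, adjusted p = 0.171).

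None of the 5 measured CDK inhibitors, which hold cells in G1, passed with edgeR at either time. At an unadjusted p under 0.05 1 was higher (Cdkn2c) and 2 were lower (Cdkn1c and Cdkn1a) at 8 weeks and 0 higher and 1 lower at 16 weeks. At 8 weeks DESeq2 and limma-voom each called 1 lower, and at 16 weeks limma-voom with quality weights did. Cdkn1c had 8.76 ± 1.21 CPM in KO-8 and 10.9 ± 0.753 CPM in WT-8 (SD, n = 4 and 5; log2 fold change -0.31, SE 0.09, adjusted p = 0.0531), and -0.51 (SE 0.27) at 16 weeks. Cdkn1b was at 0.05 (SE 0.07) and -0.43 (SE 0.17), Cdkn1a at -0.28 (SE 0.12) and -0.28 (SE 0.40), Cdkn2c at 0.25 (SE 0.09) and 0.08 (SE 0.23), and Cdkn2d at 0.18 (SE 0.14) and 0.38 (SE 0.34) at 8 and 16 weeks.

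Markers of other cell types were measured in the same groups and did not all move alike. Fibroblast markers were higher for 4 of 7 genes at 8 weeks (Col1a1, Col1a2, Postn and Lum). At 16 weeks 3 of 7 were higher (Col1a1, Col1a2 and Postn). Pdgfra, Dcn and Tcf21 were not called at either time, though all 7 fold changes were above 0. The fibroblast sums were 593 to 899 CPM in KO-8 and 487 to 547 CPM in WT-8. At 16 weeks they were 506 to 1573 CPM in KO-16 and 385 to 505 CPM in WT-16. Smooth muscle and pericyte markers were higher for 4 of 7 genes at 8 weeks and 1 of 7 at 16 weeks, with sums of 761 to 951 CPM in KO-8 and 697 to 747 CPM in WT-8, and 754 to 1016 CPM in KO-16 and 755 to 859 CPM in WT-16. Endothelial markers were higher for 2 of 6 genes at 8 weeks and none at 16 weeks, where all 6 were higher at an unadjusted p under 0.05 and DESeq2, limma-voom and limma-voom with quality weights called 1, 0 and 4. Their sums were 564 to 626 CPM in KO-8 and 510 to 554 CPM in WT-8, and 491 to 729 CPM in KO-16 and 460 to 506 CPM in WT-16. Macrophage markers gave no call at either time with edgeR, with 2 of 8 higher at 8 weeks and 3 of 8 at 16 weeks at an unadjusted p under 0.05, while DESeq2, limma-voom and limma-voom with quality weights called 0, 1 and 0 at 8 weeks and 2, 0 and 2 at 16 weeks. Their sums overlapped at both times, with 185 to 191 CPM in KO-8 and 167 to 203 CPM in WT-8, and 139 to 205 CPM in KO-16 and 124 to 165 CPM in WT-16. The sums of erythroid markers averaged 399.96 CPM in KO-8 and 669.6 CPM in WT-8, and 414.7 CPM in KO-16 and 77.7 CPM in WT-16, over ranges of 257 to 569 CPM in KO-8 and 432 to 957 CPM in WT-8, and 48.0 to 1136 CPM in KO-16 and 53.3 to 133 CPM in WT-16. Of their 7 genes 1 was lower at 8 weeks, where all 7 were lower at an unadjusted p under 0.05, and edgeR called none at 16 weeks, where all 7 were higher at an unadjusted p and DESeq2, limma-voom and limma-voom with quality weights called 1, 0 and 1. Lymphoid and neutrophil sums stayed under 22 CPM and 3 CPM in every library. The part of cell composition in the results was not tested. In KO-16 replicates 2, 3 and 4 had the 3 highest fibroblast sums, 1266, 1573 and 1145 CPM, and the 3 highest endothelial sums, 704, 729 and 726 CPM, and they also had the 3 highest medians of the division genes other than Cenpf, 2.41, 0.64 and 1.19. Replicates 1 and 5 had fibroblast sums of 506 and 819 CPM, endothelial sums of 491 and 597 CPM and medians of 0.17 and -0.24. In KO-8 the fibroblast sums of replicates 1 to 4 were 648, 593, 899 and 617 CPM, the endothelial sums 569, 564, 601 and 626 CPM and the medians 1.27, 0.89, 0.50 and 0.45.

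Of 8 markers of heart muscle cells 2 were lower in KO-8, Ryr2, the calcium release channel, by 0.32 (SE 0.07) and Pln, phospholamban, by 0.25 (SE 0.06) on the log2 scale. At 16 weeks the median of the 8 was -0.37, with Ryr2 at -0.90 (SE 0.27, adjusted p = 0.0740), and edgeR called none, with 4 lower at an unadjusted p under 0.05. DESeq2, limma-voom and limma-voom with quality weights called 2, 1 and 4 lower. The summed level was 38096 to 44958 CPM in KO-8 and 43436 to 47039 CPM in WT-8, and 27045 to 48123 CPM in KO-16 and 45827 to 52891 CPM in WT-16. In KO-16 the 3 libraries with the lowest Cenpf, replicates 2, 3 and 4, also had the lowest muscle marker sums, 27045, 29740 and 32296 CPM. They also had the most Nppa, an atrial peptide gene that stressed ventricles express. Its values there were 1813, 2349 and 1374 CPM, against 264 and 207 CPM in replicates 1 and 5. In WT-16 Nppa ran from 26.0 to 329 CPM, so the groups overlapped. The part of atrial tissue in the values of Nppa was not tested. The part of muscle cell content in the values of Cenpf was not tested.

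Because late cell cycle genes are known to share promoter elements, the 250 bases before the RefSeq start site (GRCm38.p6) were searched for 3 motifs on both strands, each position counted also where motifs overlap. Of the 41 genes 32 had an entry, and Tpx2, Foxm1, Ccna2, Aurkb, Kif20a, Ccnd2, Ccnd1, Mcm4 and Ccne2 had none. A gene was counted when any of its windows held the motif. The CCAAT box, bound by the NF-Y factor, was present in 26 of the 32 (81.25%), against 37.5% of all 27025 genes with a window. The cell cycle homology region, TTTGAA, bound by MuvB complexes, was present in 10 of the 32 (31.25%), against 18.3% of all genes with a window. An E2F motif, spelled TTTNNCGC, was present in 5 of the 32 (15.6%), against 4.94%. All 10 genes with TTTGAA had a window that also held a CCAAT box, a combination found in 6.45% of all genes with a window. Positions of TTTGAA were recorded for fewer genes than these 10, namely Ccnb2, Cdc20, Cdk1, Ect2, Kif11, Mcm2, Mki67, Top2a and Ube2c. Among the 21 genes higher in KO-8, 15 had a window. By the count over any window 13 of these held a CCAAT box, 7 the cell cycle homology region and 2 the E2F motif. These shares describe the letters and show no binding.

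The window of Cenpf is shown with those of 4 genes that rose in KO-8, chosen because they include the smallest adjusted p (Racgap1 and Kif23), the richest window of these (Top2a) and a gene whose groups separated at both times (Kif4). Sequences run 5′ to 3′ on the strand of the gene and end at the base before the start site, and capitals mark the 3 motifs on either strand.
Cenpf (chr1:189688087-189688336, minus strand): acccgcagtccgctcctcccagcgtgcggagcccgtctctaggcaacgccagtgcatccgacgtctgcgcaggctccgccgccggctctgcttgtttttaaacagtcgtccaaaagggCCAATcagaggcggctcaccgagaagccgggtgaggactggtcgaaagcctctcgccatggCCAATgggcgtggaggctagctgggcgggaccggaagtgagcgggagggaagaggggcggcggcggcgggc
Racgap1 (chr15:99651657-99651906, minus strand): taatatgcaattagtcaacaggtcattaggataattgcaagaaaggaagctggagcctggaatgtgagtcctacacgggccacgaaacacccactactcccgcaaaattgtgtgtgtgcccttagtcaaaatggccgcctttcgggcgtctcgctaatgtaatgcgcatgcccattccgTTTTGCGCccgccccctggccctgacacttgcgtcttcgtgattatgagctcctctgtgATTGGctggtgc
Kif23 (chr9:61946800-61947049, minus strand): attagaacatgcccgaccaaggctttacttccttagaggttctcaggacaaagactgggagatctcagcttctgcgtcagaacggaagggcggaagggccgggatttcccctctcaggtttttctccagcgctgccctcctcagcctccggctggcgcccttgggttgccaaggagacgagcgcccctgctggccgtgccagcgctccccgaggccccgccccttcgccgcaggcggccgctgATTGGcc
Top2a (chr11:99024190-99024439, minus strand): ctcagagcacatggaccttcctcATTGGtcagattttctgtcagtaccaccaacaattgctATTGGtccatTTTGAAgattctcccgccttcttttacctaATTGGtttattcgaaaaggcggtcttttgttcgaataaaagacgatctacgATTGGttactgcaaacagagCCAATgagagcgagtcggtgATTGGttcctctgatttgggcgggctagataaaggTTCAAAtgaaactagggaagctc
Kif4 (chrX:100625815-100626064, plus strand): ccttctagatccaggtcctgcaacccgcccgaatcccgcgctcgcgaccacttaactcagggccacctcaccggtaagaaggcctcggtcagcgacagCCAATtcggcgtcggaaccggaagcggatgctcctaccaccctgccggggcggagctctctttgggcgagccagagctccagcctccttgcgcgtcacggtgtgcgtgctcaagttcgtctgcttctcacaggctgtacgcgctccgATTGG
The Cenpf window held 2 CCAAT boxes and neither TTTGAA nor the E2F motif. By the recorded positions Kif4 also held 2 CCAAT boxes and neither of the others, as did Aurka, Bub1 and Ccnb1. The part of these motifs in the fold changes was not tested. Top2a held 6 CCAAT boxes and 2 copies of TTTGAA, Racgap1 1 CCAAT box and 1 E2F motif, and Kif23 1 CCAAT box.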

How the data were processed

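RNA of ventricular tissue was depleted of ribosomal RNA and sequenced as stranded paired-end libraries (Ribo-Zero Gold, TruSeq Stranded Total RNA, NovaSeq), per the labels' protocols. The authors deposited raw counts of read pairs per gene, made with featureCounts 1.6.3 in paired, reverse-stranded mode on Ensembl 96 (GRCm38), per the file headers. The submitters' processing notes list SAMtools, RSEM, STAR, FastQC and cutadapt 1.16 too, with no role for each. Each 16-week sample had 2 files, which were summed. Over genes with at least 10 counts the chi-square between these files was 1.30 to 2.82 for each gene, and it was 5.69 or more between libraries of 1 group. The 19 libraries came from 29 files.

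The genes were those passing edgeR's filterByExpr over all 19 libraries (15503). Each time was tested within its own libraries by edgeR's quasi-likelihood test (edgeR 4.0.16, R 4.3.3) with TMM factors (0.455 to 1.48 over the libraries) and Benjamini-Hochberg adjustment over all genes at 0.05, and the difference between times in a fit to all 19 libraries. A standard error is the fold change over the root of F. CPM use TMM factors over all libraries, log2 CPM a prior count of 2, and levels per kilobase the gene lengths in the files. Fits were checked on simulated counts. Names came from GENCODE M21, matched by start, end and strand for 55450 of 55536 genes. Alternatives were other scaling factors, DESeq2 1.42.0, limma-voom (limma 3.58.1) with and without quality weights, other filters, all libraries in 1 fit, the 18S share as covariate, 356 rRNA genes left out, single files and libraries left out. Every member is named, with Mpc1, Nde1 and Ndel1, and of each other pathway list the 4 genes with the smallest adjusted p at 16 weeks. Other genes of these lists, those past the test at 8 weeks and Cdkn2c, were chosen after their values were seen. The members, roles and lists were chosen with earlier results of these data known. Samples were grouped by the genotype and time in the labels. Replicate numbers were given in accession order, so they pair nothing. Counting error limits genes with few counts, such as Bub1 and Ccnb1.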

Additional observations from a re-analysis of the deposited data

Results flagged for a closer look

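Of 164 groups (each of the 41 genes in each of 4 groups) 16 had 1 library whose gap to the others passed Dixon's criterion. Its nominal rate of about 1 of 20 groups holds for normally distributed, independent values. CPM on few counts are not so distributed and genes of 1 library are not independent, so the 16 cannot be set against that rate. Replicate 2 of KO-16 stood out as high for 5 genes: Mcm5 at 5.83 CPM (the others 1.40 to 2.32), Foxm1 at 3.04 CPM (0 to 0.678), Aurkb at 1.62 CPM (0 to 0.244), Kif11 at 8.14 CPM (0.981 to 2.81) and Kif4 at 5.10 CPM (1.12 to 1.59). Replicate 1 of KO-8 was high for 3, namely Bub1b at 3.18 CPM (the others 2.02 to 2.20), Tpx2 at 5.20 CPM (2.48 to 2.76) and Kif23 at 4.30 CPM (2.94 to 3.02). In replicate 3 of KO-8 Mcm5 was low, at 2.06 CPM (3.05 to 3.14).

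Among wild-type libraries, replicate 1 of WT-16 was high for E2f1 at 0.505 CPM (0.166 to 0.230), Mcm4 at 11.6 CPM (7.35 to 8.00) and Cdk1 at 1.26 CPM (0 to 0.184), of which E2f1 and Cdk1 rest on at most 5 counts. Ube2c was high in replicate 2 of WT-16, at 1.08 CPM (0 to 0.184). In WT-8 Ccna2 was high in replicate 3 at 2.44 CPM (1.25 to 1.52), Tyms was high in replicate 4 at 1.96 CPM (1.39 to 1.55), and Kif20a was low in the same library at 1.08 CPM (1.37 to 1.48).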

How the results depend on the processing

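Against 0 genes higher in KO-16, DESeq2 gave 3, limma-voom with quality weights 6, no filter 7, all 19 libraries in the fit 16 (1 without replicate 2 of KO-16), the later file of each sample 1, and fits without 1 library 0 to 11. The count lower in KO-16, 1, was 0 in the fits with a covariate for 18S and without males, and 0 to 1 without 1 library. In KO-8 the count lower, 2, was 1 with DESeq2 and 0 with all 19 libraries in the fit (1 to 2 without 1 library), and the count higher, 21, was 0 with all 19 libraries. For the difference between the times quality weights gave 1, and fits without 1 library 0 to 1.

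Log2 fold changes of some genes changed sign, most of them near 0 in the main fit, but that of Foxm1 at 16 weeks was not. Ccne1 at 16 weeks was -0.35 in the libraries with over 20% 18S and -0.043 to 0.72 without 1 library. Ccne2 at 16 weeks was -0.016 with the covariate, -0.023 in those libraries, -0.067 with all 19 but replicate 2 of KO-16, and -0.067 to 0.26 without 1 library. Mcm2 at 16 weeks was -0.024 in those libraries, -0.089 with all 19 but that replicate, and -0.073 to 0.39. Mcm7 at 16 weeks was -0.23 with the earlier files, -0.015 with all 19 but that replicate, and -0.0041 to 0.21. Pcna at 16 weeks was -0.024 with quality weights, -0.094 with the later files, -0.082 with all 19 but that replicate, -0.015 without the male libraries, and -0.077 to 0.10. Foxm1 at 16 weeks, at 1.45 (SE 0.92) in the main fit, was -1.32 in those libraries and -0.010 to 1.86 without 1 library. Its lowest value there was without replicate 2 of KO-16. At 8 weeks the values without 1 library were -0.23 to 0.064 for Ccne2 at 8 weeks, -0.015 to 0.48 for E2f1 at 8 weeks, -0.050 to 0.19 for Mcm3 at 8 weeks, -0.043 to 0.015 for Mcm7 at 8 weeks (0.00035 with upper-quartile factors) and -0.11 to 0.0035 for Pcna at 8 weeks. Cenpf at 16 weeks was -2.35 with the covariate, -2.36 without the male libraries and -3.14 to -2.15 without 1 library. Cenpf at 8 weeks was -1.10 with DESeq2 (adjusted p = 0.0568), -1.11 with all 19 libraries (adjusted p = 0.552) and -1.48 to -0.87 without 1 library. The causes were not tested. No library of 8 weeks was male, so that alternative has no value there. No paired analysis was possible because the replicate numbers follow accession order and the labels give no numbers shared between groups.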
